A study of Mus musculus with 12 samples.

Results

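Fibulins and elastic fibre genes were examined in 12 libraries of RNA from sorted Schwann cells, taken from the sciatic nerve at postnatal day 5. The 10 members were taken by symbol, namely the fibulin genes Fbln1, Fbln2, Fbln5, Fbln7, Efemp1 and Efemp2, the fibrillin genes Fbn1 and Fbn2, the elastin gene Eln and Emilin1, out of 25700 listed genes. All 10 passed the filter on low counts, which left 18597 genes. Fbln1 had been chosen by its measured difference between nmSC and the other gates in these libraries, so its values are a description without a test, and counts of called members refer to the other 9. These were also chosen with earlier results of these data known, so their counts beside all tested genes are descriptions.

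All mice carried a Cre transgene active in the Schwann cell lineage, together with a Cre-dependent eYFP reporter at the Rosa26 locus and a dsRed transgene under the chicken beta actin promoter, on a C57bl/6J background. The eYFP-positive cells were sorted as a whole (allSC) or split by side scatter (SSC-A) into a high fraction enriched for myelinating Schwann cells (mSC) and a low fraction enriched for Schwann cells that do not myelinate (nmSC). Each gate has 4 libraries, each from the cells of 1 mouse, and the labels give the libraries of the 3 gates the same 4 subject numbers. The paper states that every gate held male and female mice in equal numbers, but the labels do not say which were which. The gates are enriched fractions rather than pure types, and in bulk RNA fewer cells of a type and less RNA per cell cannot be told apart.

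Fibulins are secreted glycoproteins with calcium-binding EGF-like repeats that bridge fibres and basement membranes. Elastic fibres consist of an elastin core laid on a scaffold of fibrillin microfibrils, and the short fibulins encoded by Fbln5 and Efemp2 help to bring elastin, microfibrils and lysyl oxidases together. Schwann cells build a basal lamina around each axon unit, and its nidogens, laminins and perlecan are known ligands of the larger fibulins.

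The sequences just upstream of 3 members are shown, those of Fbln1 and Efemp1 because these genes had the largest differences between nmSC and mSC among the 10, and that of Fbln5 as the most abundant member in mSC per length. Fbln1 (ENSMUSG00000006369) is on chromosome 15 (85205949 to 85286535, plus strand, GRCm38), Efemp1 (ENSMUSG00000020467) on chromosome 11 (28853204 to 28926743, plus strand) and Fbln5 (ENSMUSG00000021186) on chromosome 12 (101746565 to 101819055, minus strand). The windows are RefSeq promoter sequence of build GRCm38.p6, 250 bases each, 5′ to 3′, chr15:85205699-85205948 on the plus strand for Fbln1, chr11:28852955-28853204 on the plus strand for Efemp1 and chr12:101819120-101819369 on the minus strand for Fbln5. Capitals mark matches to GGGCGG (GC box) or CCAAT on either strand.
Fbln1: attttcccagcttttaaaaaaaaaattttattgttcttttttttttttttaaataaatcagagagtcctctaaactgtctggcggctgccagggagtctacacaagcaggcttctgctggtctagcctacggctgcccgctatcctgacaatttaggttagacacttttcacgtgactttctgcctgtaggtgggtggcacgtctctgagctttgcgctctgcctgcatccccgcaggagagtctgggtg
Efemp1: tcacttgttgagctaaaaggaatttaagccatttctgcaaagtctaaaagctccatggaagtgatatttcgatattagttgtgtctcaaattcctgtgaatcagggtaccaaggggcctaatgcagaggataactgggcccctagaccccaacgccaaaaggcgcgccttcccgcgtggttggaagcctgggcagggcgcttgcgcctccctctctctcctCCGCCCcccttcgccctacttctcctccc
Fbln5: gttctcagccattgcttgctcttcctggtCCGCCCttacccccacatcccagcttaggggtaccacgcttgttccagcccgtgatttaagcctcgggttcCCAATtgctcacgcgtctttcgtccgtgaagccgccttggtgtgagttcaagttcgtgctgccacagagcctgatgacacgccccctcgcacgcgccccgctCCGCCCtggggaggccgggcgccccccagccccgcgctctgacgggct

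The Fbln1 window had no match to the TATA box TATAAA, the GC box GGGCGG, the CCAAT box, the AP-1 letters TGACTCA or the Tead letters GGAATG, searched on both strands. A further RefSeq window of Fbln1, chr15:85205758-85206007, held 1 GC box and had a GC content of 62.4%. The Efemp1 window held 1 GC box, and the Fbln5 window held 2 GC boxes and 1 CCAAT box, whereas a further window of Fbln5, chr12:101818485-101818734, held none of these motifs and had a GC content of 49.6%. Of 32851 promoter windows of the same length, 32.7% held a GC box, 33.8% a CCAAT box, 12.4% TATAAA, 4.46% the AP-1 letters and 12.6% the Tead letters. In the printed windows the GC content was 46.4% for Fbln1, 53.6% for Efemp1 and 65.2% for Fbln5, against a median of 52.4% over all windows, and the further windows give Fbln1 and Fbln5 in the opposite order. The motifs were chosen with the results known, and a match describes letters, not a binding site.

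The remaining members are protein-coding genes at these places of GRCm38 (GENCODE M21). Fbln2 (ENSMUSG00000064080) is on chromosome 6 from 91212455 to 91272540 on the plus strand. Fbln7 (ENSMUSG00000027386) is on chromosome 2 from 128862981 to 128897034 on the plus strand. Fbn1 (ENSMUSG00000027204) is on chromosome 2 from 125300594 to 125507993 on the minus strand. Fbn2 (ENSMUSG00000024598) is on chromosome 18 from 58008623 to 58210487 on the minus strand. Eln (ENSMUSG00000029675) is on chromosome 5 from 134702593 to 134747323 on the minus strand. Emilin1 (ENSMUSG00000029163) is on chromosome 5 from 30913402 to 30921277 on the plus strand. Efemp2 (ENSMUSG00000024909) is described with its values.

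The libraries held between 8180927 and 16918122 counts. Levels are given as CPM, the share of a gene in the counts of its library after scaling by TMM factors, which equalize most genes between libraries. Over 9400 genes of at least 10 CPM, replicates 4 and 1 of mSC lay farthest from the other libraries of their gate, at a root mean square distance of 0.577 and 0.454 on the log2 scale against 0.171 to 0.340 in the other 10 libraries. The gates carried their labels' markers. The myelin gene Mbp was at 49186 to 56777 CPM in mSC and 5168 to 6362 CPM in nmSC, and Ncmap, a protein of noncompact myelin, at 1589 to 3014 CPM and 158 to 222 CPM, while the sum of the immature and proliferating markers Ngfr, Ncam1, L1cam, Mki67 and Top2a was 130 to 180 CPM in mSC, 841 to 915 CPM in allSC and 1299 to 1743 CPM in nmSC. Sox10, the transcription factor of the Schwann cell lineage, had a mean of 267 CPM in mSC, 267 CPM in allSC and 266 CPM in nmSC.

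Between nmSC and mSC, the question was how the matrix genes of cells in or before radial sorting differ from those of myelinating cells. In nmSC, Fbln2, Efemp1, Fbn1, Fbn2, Eln and Emilin1 were higher and Fbln5 and Fbln7 were lower, so that 8 of 9 members passed the edgeR quasi-likelihood test at an adjusted p under 0.05 (Benjamini-Hochberg), where 40.5% of all tested genes were called, 20.2% higher and 20.4% lower. The median log2 fold change of the 9 members was 0.94, and that of all tested genes was 0.16. Only Efemp2 of the 9 was not called. With library size alone as the scaling, the median of all genes was 0.73, so that changes read here are relative to the chosen scaling, and Fbln5 then turned to a log2 difference of 0.14.

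Fbln1 encodes a fibulin that binds fibronectin and nidogen. Its level was 1.49, 0.695, 2.33 and 0.249 CPM in mSC replicates 1 to 4, 15.4, 18.2, 12.2 and 17.8 CPM in allSC and 21.2, 31.3, 40.5 and 35.0 CPM in nmSC. The 3 gates did not overlap, with mSC near the detection floor and nmSC highest. The log2 difference of nmSC from mSC was 4.64 ± 0.337 (SE) in the fit, or 24.9-fold, that of nmSC from allSC was 1.01 ± 0.262 and that of allSC from mSC was 3.63 ± 0.337. The mSC values rest on 62 counts in all, and replicate 4 held 2 counts, under the floor of 3 counts that corresponds to 0.374 CPM there. Without this library the log2 difference from mSC was 4.38 ± 0.292.

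Fbln2, a large fibulin of basement membranes and the relative of Fbln1, was at 86.5, 85.4, 97.7 and 41.3 CPM in mSC, 245, 249, 230 and 254 CPM in allSC and 262, 357, 444 and 353 CPM in nmSC. The gates did not overlap, and mSC replicate 4 was the lowest library. The log2 fold change of nmSC over mSC was 2.19 ± 0.207 (SE, n = 4 per gate), with an adjusted p of 6.41e-08 in the edgeR test. Without mSC replicate 4 it was 1.97 ± 0.140.

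Efemp1 encodes fibulin-3, a short fibulin with known binding to the protease inhibitor Timp3. It stood at 0.882, 2.95, 2.25 and 1.12 CPM in mSC, 12.1, 12.7, 12.5 and 8.64 CPM in allSC and 14.7, 12.7, 23.6 and 19.2 CPM in nmSC. Every mSC library was below every library of the other gates, which overlapped each other. The nmSC gate exceeded mSC by a log2 fold change of 3.27 ± 0.301 (SE), the largest of the 9 tested members, with an adjusted p of 4.36e-08 in the edgeR test.

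Fbln5 encodes fibulin-5, which is needed to assemble elastic fibres. Its level was 354, 320, 363 and 326 CPM in mSC, 329, 278, 295 and 338 CPM in allSC and 200, 242, 281 and 293 CPM in nmSC. The mSC libraries were all above the nmSC libraries, and allSC overlapped both. The log2 fold change of nmSC over mSC was -0.42 ± 0.128 (SE, 95% interval -0.69 to -0.15), with an adjusted p of 0.0141 in the edgeR test, and it turned to 0.14 with library size alone. Relative to the median of all tested genes the difference was -0.58 under TMM scaling and -0.59 under library size alone.

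Fbln7, a fibulin first known as a cell adhesion protein of developing teeth, was at 12.3, 11.6, 12.7 and 9.48 CPM in mSC, 7.49, 8.42, 7.46 and 6.43 CPM in allSC and 3.26, 5.43, 7.01 and 3.75 CPM in nmSC. The mSC libraries lay above those of allSC and nmSC, which overlapped. Between nmSC and mSC the log2 fold change was -1.24 ± 0.218 (SE), with an adjusted p of 0.000150 in the edgeR test.

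Efemp2, which encodes the elastogenic fibulin-4, was at 102, 98.2, 108 and 143 CPM in mSC, 109, 115, 115 and 117 CPM in allSC and 105, 124, 157 and 126 CPM in nmSC. The gates overlapped, with mSC replicate 4 high. The log2 difference of nmSC from mSC was 0.19 (95% interval -0.11 to 0.48), with an adjusted p of 0.296 in the edgeR test. Without mSC replicate 4 it was 0.31 with an adjusted p of 0.0418, and with library size alone 0.76. Against the median of all tested genes it was 0.02 under TMM scaling and 0.03 under library size alone. Efemp2, on chromosome 19 (5473954 to 5482517), overlaps Mus81 on the opposite strand, and reads of the genes cannot be told apart if counting ignored the strand.

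**Figure D1:**
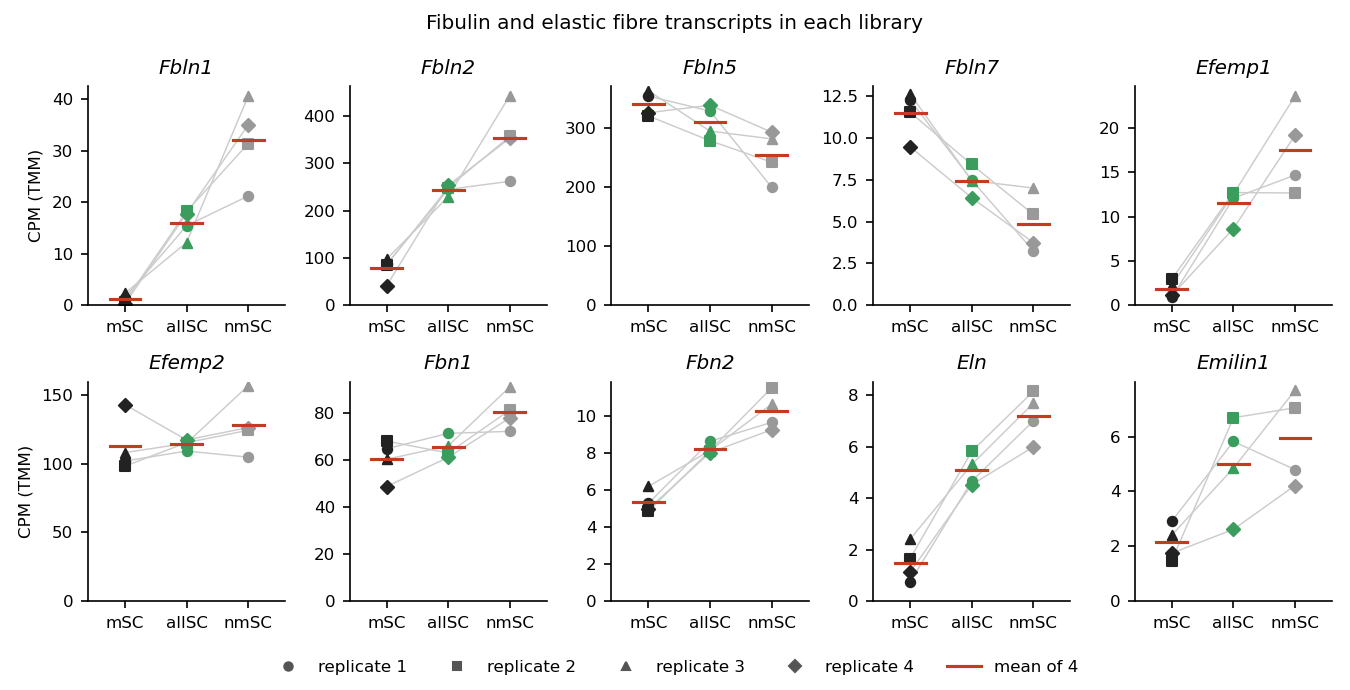
Levels of the 10 genes as CPM with TMM scaling (y axes start at 0) in the libraries of the mSC, allSC and nmSC gates. Points are libraries, lines join libraries with the same subject number and red bars are means of 4. Fbln1, Fbln2 and Efemp1 climb from mSC to nmSC, Fbln7 is highest in mSC, and Efemp2 overlaps between the gates. The nmSC level of Fbln5 is below that of mSC under this scaling and not with library size alone.

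The fibrillins form the microfibrils of elastic fibres. Fbn1 was at 64.9, 68.1, 60.4 and 48.8 CPM in mSC, 71.4, 63.0, 66.1 and 61.2 CPM in allSC and 72.3, 81.3, 91.3 and 78.0 CPM in nmSC, and the nmSC libraries lay above those of the other gates. Its log2 fold change of nmSC over mSC was 0.42 ± 0.130 (SE), with an adjusted p of 0.0164 in the edgeR test. This call was lost without nmSC replicate 3 (log2 0.34, adjusted p = 0.0523) and in a fit of only these gates (log2 0.41, adjusted p = 0.0589).

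Fbn2, the fibrillin most abundant in embryonic tissue, was at 5.29, 4.87, 6.21 and 4.99 CPM in mSC, 8.65, 8.16, 8.15 and 8.04 CPM in allSC and 9.68, 11.5, 10.7 and 9.28 CPM in nmSC. The gates did not overlap and allSC lay between the others. The log2 fold change of nmSC over mSC was 0.94 ± 0.166 (SE), with an adjusted p of 0.000149 in the edgeR test. Fbn1 on chromosome 2 overlaps Gm9913, and Fbn2 on chromosome 18 overlaps Gm26507 and Eln overlaps Gm30003, each on the opposite strand.

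Eln encodes tropoelastin, the monomer of the fibre core. It was at 0.746, 1.65, 2.41 and 1.12 CPM in mSC, 4.65, 5.82, 5.31 and 4.52 CPM in allSC and 7.0, 8.15, 7.69 and 5.99 CPM in nmSC. The gates did not overlap, although all values were low. In nmSC relative to mSC its log2 fold change was 2.27 ± 0.285 (SE), with an adjusted p of 2.78e-06 in the edgeR test. The mSC values rest on 70 counts over the 4 libraries.

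Emilin1, a glycoprotein at the border of elastin and microfibrils, was at 2.92, 1.48, 2.41 and 1.75 CPM in mSC, 5.82, 6.69, 4.85 and 2.61 CPM in allSC and 4.79, 7.05, 7.69 and 4.21 CPM in nmSC. The nmSC libraries lay above those of mSC, and allSC overlapped both gates. The log2 fold change of nmSC over mSC was 1.45 ± 0.310 (SE), with an adjusted p of 0.000992 in the edgeR test.

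Libraries of nmSC and mSC did not overlap for the 8 called members, where 34.2% of all tested genes did not overlap. It follows that the nmSC library was on the same side of the mSC library for all 4 subject numbers for these 8 (6 higher and 2 lower). The count by subject number thus adds nothing to the lack of overlap. Of all tested genes, 48.7% were on the same side in all 4. With library size alone, 7 members were higher and 1 lower.

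Between nmSC and allSC none of the 9 members passed the edgeR quasi-likelihood test after Benjamini-Hochberg adjustment, where 10.4% of all tested genes were called (2.83% higher in nmSC and 7.54% lower). At an unadjusted p under 0.05 the count was 5, but the share of all tested genes at that threshold was not computed. DESeq2's Wald test called 1 member, Fbln7, beside 2448 of 18597 tested genes. The log2 differences ran from -0.61 for Fbln7 (adjusted p = 0.0909) and -0.29 for Fbln5 to 0.54 for Fbln2 (adjusted p = 0.102) and 0.61 for Efemp1 (adjusted p = 0.158). The nmSC libraries lay above allSC without overlap for Fbln2, Fbn1, Fbn2 and Eln, 4 of the 9, where 19.3% of all tested genes did not overlap. Without mSC replicate 4, which enters through the shared spread, Fbln2 (log2 0.56, adjusted p = 0.00249) and Fbn1 (log2 0.32, adjusted p = 0.0426) were called. That fit called 2785 of 19369 tested genes. Without nmSC replicate 3, 1 member, Fbln7, was called lower in nmSC (log2 -0.85, adjusted p = 0.0167, edgeR), beside 1706 of 19050 tested genes.

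Between allSC and mSC 6 of the 9 members were called, where 17.6% of all tested genes were (8.8% higher in allSC and 8.76% lower). Efemp1 (log2 2.66 ± 0.302, adjusted p = 2.82e-06), Eln (1.77 ± 0.287), Fbln2 (1.65 ± 0.204), Emilin1 (1.21 ± 0.311) and Fbn2 (0.62 ± 0.167, adjusted p = 0.0139) were higher in allSC, and Fbln7 was lower (-0.62 ± 0.212, adjusted p = 0.0486, edgeR). Leaving out single libraries lost the call of Fbln7 in 8 of 12 fits, that of Fbn2 without mSC replicate 2 and that of Emilin1 without allSC replicate 2. The count of called members was 4 to 6 over these fits. Libraries of allSC and mSC did not overlap for Fbln2, Fbln7, Efemp1, Fbn2 and Eln, 5 of the 9, where 22.6% of all tested genes did not. The differences were -0.14 for Fbln5, 0.02 for Efemp2 and 0.11 for Fbn1, none of them called. The 3 comparisons share libraries and are not independent. The mean of allSC lay between those of mSC and nmSC for the 10 members, and the allSC library lay between the same-numbered others in all 4 cases for Fbln1, Fbln2, Fbln7, Fbn2 and Eln. The allSC gate took in both other fractions, so a level between theirs is built into the sort. The paper reports such levels for most transcripts, and these positions are a description.

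**Figure D2:**
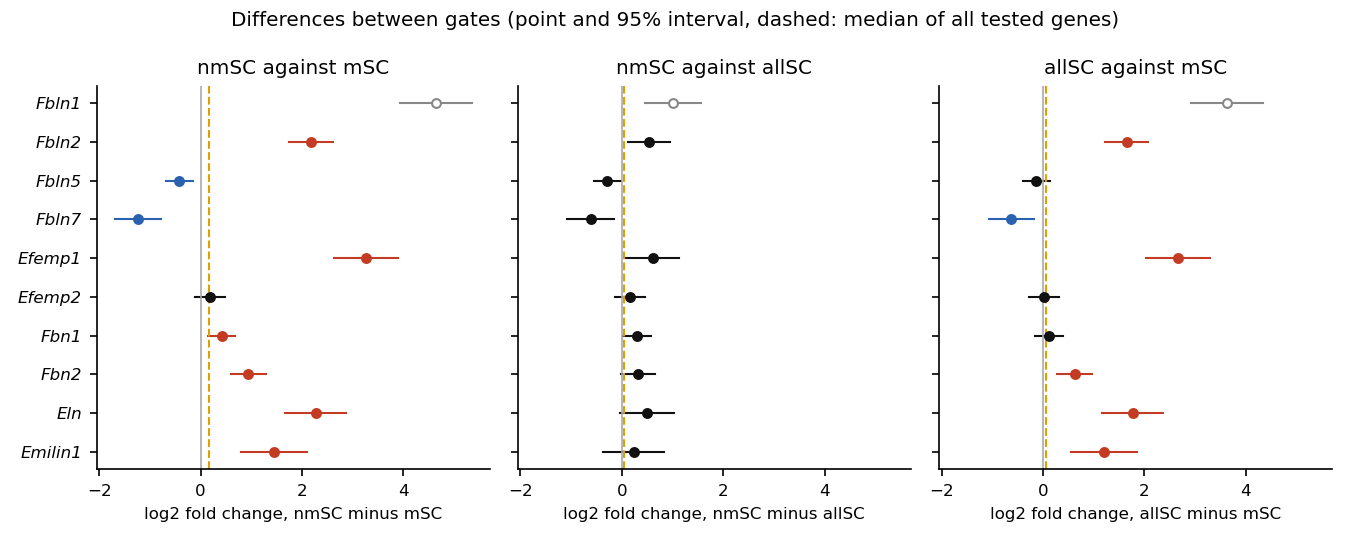
Log2 fold changes of the 10 genes between the gates, with 95% intervals of the edgeR fit, and the median of all tested genes as a dashed line. Red points were called higher, blue points lower and black points were not called, and Fbln1 (open) was not tested. For Fbln1, Fbln2, Efemp1, Fbn2, Eln and Emilin1 the difference of nmSC from allSC is smaller than that of either gate from mSC, and Fbln5 turns to 0.14 between nmSC and mSC with library size alone.

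Per length (RPKM, the CPM per kilobase of exon), Fbln5, Efemp2 and Fbln2 were the 3 most abundant members in each gate. In mSC the mean was 49.3 RPKM for Fbln5, 29.8 RPKM for Efemp2 and 12.2 RPKM for Fbln2, and these neighbours did not overlap, nor did Fbn1 at 4.99 RPKM and Fbln7 at 3.56 RPKM. Below them Efemp1 (0.885 RPKM), Emilin1 (0.433), Fbn2 (0.404), Fbln1 (0.273) and Eln (0.183) overlapped with their neighbours. In allSC the order was Fbln5 (44.9 RPKM), Fbln2 (38.4), Efemp2 (30.1), Efemp1 (5.64), Fbn1 (5.40), Fbln1 (3.64), Fbln7 (2.31), Emilin1 (1.01), Eln (0.627) and Fbn2 (0.624), where Efemp1 overlapped Fbn1 and the last 3 overlapped. In nmSC Fbln2 led with 55.6 RPKM, before Fbln5 (36.8), Efemp2 (33.8), Efemp1 (8.60), Fbln1 (7.33), Fbn1 (6.66), Fbln7 (1.51), Emilin1 (1.20), Eln (0.890) and Fbn2 (0.779), where only the steps from Efemp2 to Efemp1 and from Fbn1 to Fbln7 were free of overlap. With the mean transcript length in place of the exon union, 2 of 10 members kept their rank in nmSC and 4 of 10 in allSC, although the leading 3 were still these genes.

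The summed level of the 10 genes was 102 ± 4.65 RPKM (SD, n = 4) in mSC, 133 ± 4.01 RPKM in allSC and 153 ± 27.3 RPKM in nmSC. Fbln5 made up 48.3% ± 1.17 of that sum in mSC and 24.1% ± 2.01 in nmSC, whereas Fbln2 made up 11.9% ± 3.63 and 36.2% ± 1.66. The share of Efemp2 was 29.3% ± 5.71 in mSC and 22.1% ± 0.882 in nmSC. In nmSC, Fbln1 made up 4.73% ± 0.456 and Efemp1 5.59% ± 0.959. The sums and shares rest on the exon union and depend on that choice. Fbln2 has an exon union of 6370 bases and a mean transcript length of 1578 bases, and Fbln5 has 6911 and 3331 bases. Shares by mean transcript length were not computed.

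**Figure D3:**
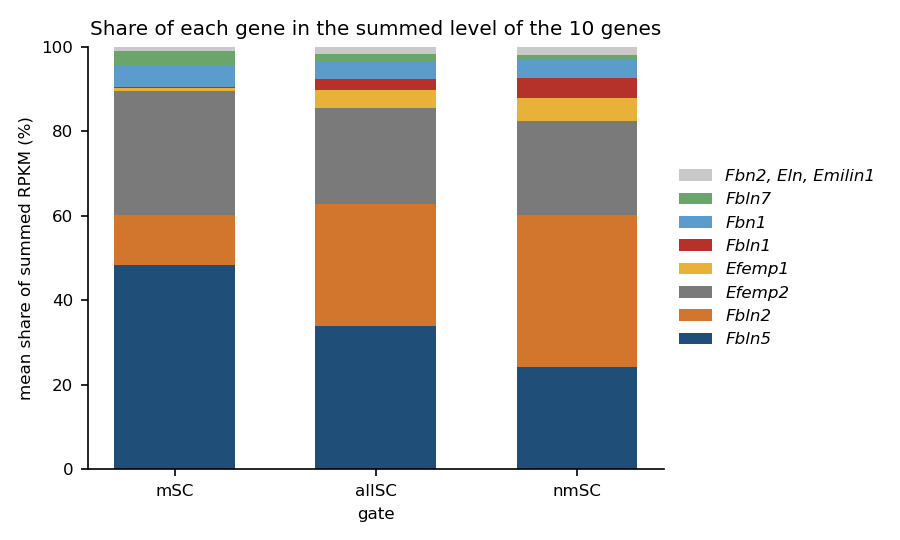
Mean share (%) of each gene in the summed RPKM of the 10 genes in the mSC, allSC and nmSC gates, over 4 libraries each, as stacked bars. Fbln5 holds 48.3% in mSC and 24.1% in nmSC, and Fbln2 holds 11.9% and 36.2%. Fbn2, Eln and Emilin1 share the uppermost segment. Lengths are exon unions, and shares by mean transcript length were not computed.

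Ratios of counts within a library do not depend on the scaling between libraries. The ratios below were chosen after the values were seen. Counts of Fbln2 were 0.127 to 0.269 of those of Fbln5 in mSC, 0.746 to 0.895 in allSC and 1.21 to 1.58 in nmSC, so that the order of the 2 genes was opposite in the mSC and nmSC libraries. Counts of Efemp1 were 0.00785 to 0.0301 of those of Efemp2 in mSC, 0.0737 to 0.111 in allSC and 0.102 to 0.152 in nmSC. Counts of Fbn2 were 0.0714 to 0.103 of those of Fbn1 in mSC, 0.121 to 0.131 in allSC and 0.117 to 0.142 in nmSC, and the latter gates overlapped. Counts of Fbln7 were 0.0291 to 0.0361 of those of Fbln5 in mSC and 0.0128 to 0.0249 in nmSC.

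**Figure D4:**
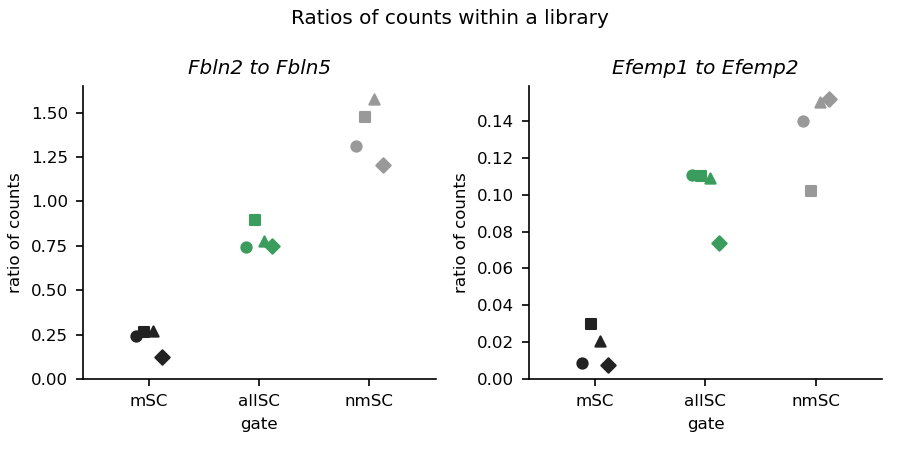
Ratio of the counts of Fbln2 to Fbln5 and of Efemp1 to Efemp2 within each library (y axes start at 0), by gate, with markers for replicates 1 to 4. The Fbln2 to Fbln5 ratio is 0.127 to 0.269 in mSC and 1.21 to 1.58 in nmSC, and the Efemp1 to Efemp2 ratio of allSC overlaps that of nmSC.

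By the root mean square difference of centred log2(CPM + 1) values over the 12 libraries, among 9399 genes of at least 10 CPM, the genes nearest to Fbln1 were Foxm1 (0.280), Iqgap3 (0.294), Axl (0.296), Dab2 (0.297) and Abca8b (0.303). The mean level of Foxm1 was 4.59 CPM in mSC, 34.6 CPM in allSC and 64.8 CPM in nmSC, and that of Axl was 10.7, 75.0 and 124 CPM. Of the members with that level, Efemp1 ranked 141 and Fbln2 193 by this distance, whereas Fbn1 ranked 1397, Efemp2 2462 and Fbln5 5720. The added 1 narrows the differences of Fbln1, which was at 0.249 to 2.33 CPM in mSC, and the order of genes under another added value was not tested. These 12 libraries share gates and mice, and the distance is a description.

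Partner genes came from 7 lists with 54 genes, of which 52 were tested. The lists were chosen with earlier results of these data known, so their counts are descriptions. Between nmSC and mSC, 25 were higher in nmSC, 7 were lower and 20 were not called, where 40.5% of all tested genes were called (20.2% higher and 20.4% lower), with a median log2 fold change of 0.76 beside 0.16 for all tested genes. Between nmSC and allSC, 10 were higher and 5 lower, beside 10.4% of all tested genes called, and between allSC and mSC 15 were higher and 3 lower, beside 17.6%.

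Of the 7 microfibril and TGF-beta binding genes, 3 were higher in nmSC and 2 were lower, beside 40.5% of all tested genes called. Their median log2 fold change was 0.04. Ltbp4, which encodes a latent TGF-beta binding protein that also binds fibulin-5, had values of 6.79, 9.73, 11.4 and 5.74 CPM in mSC, 93.7, 102, 113 and 107 CPM in allSC and 172, 185, 234 and 204 CPM in nmSC. The gates did not overlap. Its log2 fold change of nmSC over mSC was 4.55 ± 0.194 (SE), with an adjusted p of 1.51e-12 in the edgeR test. Ltbp1, which tethers latent TGF-beta to fibrillin, had means of 5.23 and 16.8 CPM (1.66 ± 0.217). Mfap2, a microfibril glycoprotein, had means of 12.5 and 27.0 CPM (1.14 ± 0.251). Ltbp3 was lower in nmSC, at 28.2 against 37.7 CPM (-0.42 ± 0.132, adjusted p = 0.0172), but stood at 0.14 with library size alone and lost its call without nmSC replicate 2 (adjusted p = 0.0560). Against the median of all tested genes Ltbp3 was at -0.58 under TMM scaling and -0.59 under library size alone.

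Of the 5 tested genes of the hemicentin and emilin list, 3 were higher in nmSC and none was lower, beside 40.5% of all tested genes called. Their median log2 fold change was 0.88, and their means were under 10 CPM. Of the 5 lysyl oxidases, which cross-link elastin and collagen, Loxl2 was higher in nmSC (49.2 against 8.63 CPM, log2 2.50 ± 0.172) and Lox was lower (15.9 against 28.4 CPM, log2 -0.84 ± 0.153, adjusted p = 0.000218 in the edgeR test). With library size alone Lox was at -0.28 and was not called. The median of the list was 0.72, and 40.5% of all tested genes were called. Loxl1, the family member tied to elastin and fibulin-5, was low, with means of 1.02 CPM in mSC and 1.73 CPM in nmSC (log2 0.72, adjusted p = 0.100), and it was named after its values were seen.

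The 6 ADAMTS and ADAMTS-like genes, whose products bind fibrillin or act on microfibrils, were called, 4 higher in nmSC and 2 lower. Their median log2 fold change was 1.12, and 40.5% of all tested genes were called. Adamts17 was at 99.0 CPM in nmSC and 17.4 CPM in mSC (2.50 ± 0.203), and Adamts10 at 27.9 and 7.55 CPM (1.87 ± 0.212). Adamtsl2 was at 7.03 CPM in nmSC and 51.3 CPM in mSC (-2.87 ± 0.154, adjusted p = 2.49e-11 in the edgeR test), with 27.4 CPM in allSC. Adamtsl5 was at 32.2 and 80.6 CPM (-1.32 ± 0.129).

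Of the 8 tested proteases and inhibitors, 5 were higher in nmSC and none was lower, beside 40.5% of all tested genes called. Their median was 0.87. Mmp14, a membrane-bound metalloproteinase that activates Mmp2, was at 184 CPM in nmSC and 29.8 CPM in mSC (2.63 ± 0.198), and Mmp2 at 209 and 69.4 CPM (1.59 ± 0.137). Timp2, an inhibitor that also takes part in this activation, was at 223 and 149 CPM (0.59 ± 0.112). Adamts1, a proteoglycan-cleaving protease with fibulin-1 as a known cofactor, was at 47.6 and 24.7 CPM (0.93 ± 0.292, adjusted p = 0.0162 in the edgeR test), a call lost without nmSC replicate 1 (adjusted p = 0.0531). Timp3, a ligand of fibulin-3 named after its values were seen, was at 913 and 919 CPM (-0.01, 95% interval -0.26 to 0.25).

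Of the 11 matrix partners of fibulins, 5 were higher in nmSC and 1 was lower, beside 40.5% of all tested genes called. Their median was 0.29. Nid2, a nidogen of the basal lamina, was at 561, 542, 570 and 197 CPM in mSC, 844, 800, 854 and 876 CPM in allSC and 803, 914, 1258 and 1093 CPM in nmSC. The mSC libraries lay below the others, with replicate 4 far below the remaining 3. The log2 fold change of Nid2 was 1.12 ± 0.234 (SE), with an adjusted p of 0.000778 in the edgeR test. Fn1, fibronectin, had means of 12.7 CPM in nmSC and 3.23 CPM in mSC (1.97 ± 0.183), and Tnc, tenascin-C, 99.6 and 33.2 CPM (1.58 ± 0.231).

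Of the 10 integrin subunits, 4 were higher in nmSC and 1 was lower, beside 40.5% of all tested genes called. Their median was 0.59. Itgb3, which pairs with Itgav in a receptor for RGD-bearing matrix proteins, was at 256 CPM in nmSC and 19.8 CPM in mSC (3.69 ± 0.170, adjusted p = 3.71e-12 in the edgeR test), and Itga4, which pairs with Itgb1, at 57.9 and 8.93 CPM (2.69 ± 0.164). Itgb5, another partner of Itgav, was at 8.28 and 22.9 CPM (-1.47 ± 0.167).

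**Figure D5:**
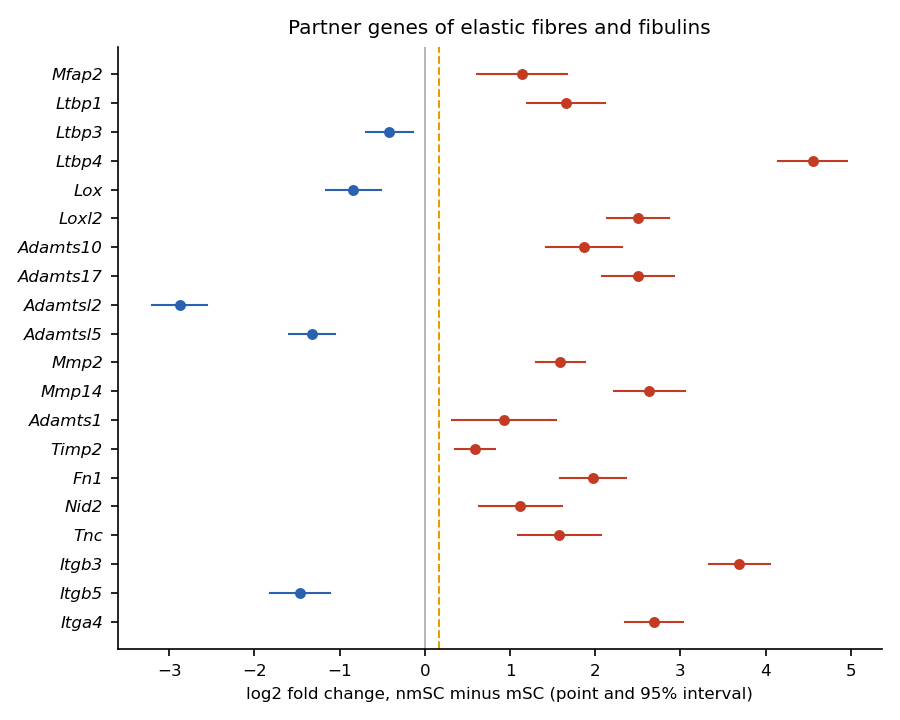
Log2 fold changes of nmSC over mSC, with 95% intervals of the edgeR fit, for the 20 called partner genes of at least 10 CPM, where red is higher and blue is lower in nmSC and the dashed line is the median of all tested genes. Ltbp4 at 4.55 and Itgb3 at 3.69 lie farthest right and Adamtsl2 at -2.87 farthest left, and Ltbp3 turns to 0.14 with library size alone.

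Of the markers of fibroblast-like cells, the collagens were higher in nmSC as several of these genes were. The summed level of the 12 listed markers was 1651 to 3093 CPM in mSC, 4818 to 5481 CPM in allSC and 6673 to 8713 CPM in nmSC, and 9 were tested between nmSC and mSC, of which Col1a1, Col1a2 and Col2a1 were higher and none was lower, where 40.5% of all tested genes were called. Most of the sum came from Col1a1 and Col1a2. Col1a1 had means of 787 CPM in mSC and 3418 CPM in nmSC and Col1a2 of 1820 and 3761 CPM. Ly6c1, Dpt, Pi16 and Clec3b had means under 1 CPM in every gate, and none of the 12 was at 0 in a whole gate. Pdgfra, the defining marker of these cells, had means of 2.34 CPM in mSC, 2.64 CPM in allSC and 2.34 CPM in nmSC, Dcn 12.8, 10.3 and 8.47 CPM and Lum 5.01, 3.50 and 2.17 CPM, none of these 3 called between nmSC and mSC. The part of other cells in the levels of the fibulins was not tested beyond these values. The perineurial markers went in opposite directions, with Itgb4 higher in nmSC (127 CPM in mSC and 206 CPM in nmSC) and Slc2a1 lower (56.9 and 36.9 CPM). In sum the perineurial markers were at 121 to 207 CPM in mSC and 181 to 313 CPM in nmSC, the immune markers at 5.65 to 7.37 and 6.64 to 16.0 CPM, the endothelial markers at 1.40 to 3.91 and 2.63 to 4.16 CPM, and the pericyte markers at 60.1 to 174 and 45.5 to 83.4 CPM. Cd68 (means of 0.912 CPM in mSC and 2.29 CPM in nmSC) and Pecam1 (1.25 and 2.45 CPM) were called higher in nmSC, both at low levels. Pdgfrb was called lower (129 and 60.6 CPM) and made up most of the pericyte sum. Ptprc (5.67 and 8.79 CPM) and Acta2 (0.831 and 1.09 CPM) were not called, and Cldn5 and Cd300lg were not tested.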

How the data were processed

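The authors aligned Smart-Seq2 reads with STAR and assigned them to genes with featureCounts. The raw counts of 25700 genes were deposited, without normalization. The submitters' processing notes give STAR 2.6.1c and the mouse build GRCm38.p5, whereas the paper's methods name a human build, and the gene identifiers are those of mouse. Whether counting used the strand is not stated in the sources used here. The members and gene lists below were chosen with earlier results of these data known. Fbln1 was picked for its measured rise in nmSC and was therefore not tested.

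From the counts, TMM factors were computed and the gates compared by the quasi-likelihood test of edgeR 4.0.16 in R 4.3.3, in 1 model over the 12 libraries after its expression filter by gate (18597 genes), with Benjamini-Hochberg adjustment over all tested genes and a threshold of 0.05. DESeq2 1.42.0 was an alternative. Standard errors (SE) and 95% intervals come from the edgeR fit, and the steps were tested on simulated data. CPM is a count over the product of library total and TMM factor, and RPKM divides CPM by the length in kilobases of the union of exons in GENCODE M21. The intervals cover the spread between libraries as well as counting error, and the count floors cover counting error only.

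The pairing of libraries comes from the subject number in the labels, which is shared across the gates. Over 9400 genes, the mean correlation of same-numbered deviations from the gate means was -0.06 between nmSC and mSC (-0.49 to 0.29 over the 4 numbers), 0.034 between nmSC and allSC and 0.29 between allSC and mSC. Genes were named with values where they were members, markers, the 5 genes closest to Fbln1 in pattern, or genes of the 7 partner lists with an adjusted p under 0.05 between nmSC and mSC and a mean of at least 10 CPM in either gate. Genes named outside this rule are marked as chosen after their values were seen. Alternatives were DESeq2 size factors, library size alone, no filter, at least 1 CPM in 4 libraries, DESeq2's Wald test, only the gates compared, the subject number as a block, and leaving out each library in turn. Sex was not used, since the labels do not give it. In the paper's plot of distances between samples, the libraries of each gate formed pairs by sex. The part of sex in the spread within a gate was not tested.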

Additional observations from a re-analysis of the deposited data

Results flagged for a closer look

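In 3 of 90 groups of 4 libraries, 1 library lay far from the other 3 by Dixon's 95% criterion, and chance alone flags about 1 in 20 groups. Efemp1 was at 8.64 CPM in allSC replicate 4, where the other 3 allSC libraries were at 12.1 to 12.7 CPM. Ltbp3 was at 25.8 CPM in nmSC replicate 2, against 28.7 to 29.2 CPM in the others. Nid2 was at 197 CPM in mSC replicate 4, against 542 to 570 CPM in the others, and the same library held the lowest mSC values of Fbln1, Fbln2, Fbln7 and Fbn1 and the highest of Efemp2.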

How the results depend on the processing

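Among the fold changes of members between the gates and of named partner genes between nmSC and mSC, 906 alternative values were unchanged, 17 lost a call, 16 gained a call, 10 reversed and 1 moved. Unchanged means the same direction and side of the threshold for tested genes. For Fbln1, which was not tested, it means the same direction and a shift smaller than the SD within gates. With library size alone, 11864 genes were called between nmSC and mSC (7540 with TMM; 87.8% of calls higher in nmSC against 49.7%) and 2951 between nmSC and allSC (1928), where 5 members were called. Fbln5 then reversed to 0.14 between nmSC and mSC and to 0.17 between allSC and mSC, Ltbp3 reversed to 0.14, and Fbln1 moved to 5.18. In fits of only the compared gates, 2899 genes and 3 members were called between nmSC and allSC, and DESeq2's Wald test called 2448 genes and 1 member there. Efemp2 between allSC and mSC reversed to -0.0390 with DESeq2 size factors and to -0.0387 with its Wald test. With the mean transcript length, 2 of 10 members kept their RPKM rank in nmSC and 4 in allSC.

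Leaving out each library in turn gave 6174 to 7990 called genes, 7 to 9 members and 26 to 33 partner genes between nmSC and mSC, 1344 to 2785 genes, 0 to 2 members and 9 to 19 partner genes between nmSC and allSC, and 2205 to 4204 genes, 4 to 6 members and 15 to 21 partner genes between allSC and mSC. The 9 partner genes came without nmSC replicate 3 (15 with all libraries). Between allSC and mSC the difference of Efemp2 ran from -0.0649 to 0.126 and that of Fbn1 from -0.0029 to 0.15, the latter low without mSC replicate 4. The cause was not tested.

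With the subject number as a replicate block, 7173 genes and 8 members were called between nmSC and mSC, 1774 and 0 between nmSC and allSC, and 2899 and 6 between allSC and mSC, and no call of a member changed. Differences in genes at or under 3 counts per library, 0.197 to 0.374 CPM, were not detectable at this depth.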
